A study of Mus musculus with 8 samples.

Results

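Formins are large proteins that start unbranched actin filaments and stay at the growing end while the filament gets longer. The FH2 domain, which works as a dimer, holds the filament end, and the neighbouring proline-rich FH1 domain delivers actin that is bound to profilin. Many formins are folded on themselves until they are activated, and INF2, whose mutations cause focal segmental glomerulosclerosis in humans, also severs and depolymerizes filaments. The transcripts followed here are those of 9 formin genes, Diaph1, Diaph2, Diaph3, Daam1, Fhod1, Fmnl1, Fmnl2, Fmnl3 and Inf2, and the members are all probesets that the platform annotation assigns to them. They are 10 of the 46643 probesets and stand for 7 of the 9 genes. Diaph2 and Fmnl3 were not analysed here, since the annotation used names no probeset for them. Diaph1, Diaph3 and Daam1 have 2 probesets each, and Fhod1, Fmnl1, Fmnl2 and Inf2 have 1.

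The comparison is between 4 input and 4 eluate RNA samples of MPC-5, a mouse podocyte line with conditional immortalization. All samples came from cells stably transfected with WT1(+KTS), the WT1 isoform with the KTS insertion, with a C-terminal FLAG and protein A tag under a CMV promoter, and differentiated for 14 days at 37°C after growth at 33°C. Input is RNA of a part of the extract kept aside, and eluate is RNA of what was recovered from IgG beads with TEV protease. Per the labels the enrichment did not depend on the tagged protein, and a higher eluate signal is read here as a larger share of the eluted RNA, with no reference to WT1. The paper tested this by quantitative PCR for Myh10, Dbn1 and other mRNAs of its list of enriched genes, and it names no formin among them. No array of cells without the tagged protein was analysed here. Both fractions were labelled from 650 ng of total RNA and read on Illumina Sentrix-6 mouse arrays, so a fold change compares shares of RNA and not amounts. The sources used here do not say whether the cells were 1 clone or whether replicates were cultured apart, so the p-values cover only the spread among these arrays, which may be technical.

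Median signals per array were 64.9 to 84.3 in the inputs and 71.0 to 84.6 in the eluates, and a mean signal of 100 was higher than that of 68.0% of all probesets. Of 14 podocyte markers with a probeset, 9 reached a signal of 100 on 3 or more input arrays. They were Synpo, Podxl, Actn4, Nes, Vim, Tjp1, Cdkn1c, Trpc6 and Nphs1 (nephrin). Nphs1 only just reached it, with signals of 86.2 to 114 in the inputs and 74.4 to 106 in the eluates. Trpc6 was also dim, at 118 to 138 in the inputs and 112 to 128 in the eluates. The paper states that nephrin mRNA was not detected in its cell extracts. Wt1, Cd2ap, Ptpro and Dach1 stayed under 100 on every array. None of 4 immune markers reached that level, against 2 of 8 tubule, 3 of 6 endothelial and 2 of 5 mesangial or smooth muscle markers, and the water channel Aqp1 reached 12405 in an input. The first principal component, with 56.7% of the variance, separates the arrays into 2 sets of 2 inputs and 2 eluates each: set A holds inputs 1 and 2 with eluates 1 and 4, and set B holds inputs 3 and 4 with eluates 2 and 3. The source of this split is not given in the labels.

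Diaph1, Daam1 and Inf2 were the formins with higher signals in all 4 eluates than in any input, at 1.81-fold, 1.72-fold and 1.52-fold. None of the formins reached 2-fold. Diaph3 and Fhod1 were at 1.21-fold and 1.18-fold with overlapping fractions, and Fmnl2 was at 1.05-fold. With a background of 30 subtracted from the signals, Diaph1, Daam1 and Inf2 were at 1.93-fold, 1.80-fold and 1.55-fold. Larger backgrounds were not tried, so the folds of dimmer probesets depend on this choice. Of the 10 probesets, 6 reached a signal of 100 on 3 or more eluates and were tested among 13902 probesets with limma, blocked on the replicate number, at a cutoff of 15% on the Benjamini-Hochberg adjusted p. The filter reads the eluates, so a probeset that is bright in them alone can pass while one that is bright in the inputs alone cannot. Of the 6, only Diaph1 passed the cutoff as higher, and none passed as lower, against 1.09% of all tested probesets higher and 0.0288% lower. The counts of calls depend on the block. Whether the replicate numbers pair the arrays could not be settled from the values, and without the block Diaph1, Daam1 and Inf2 passed, while 3.58% of all tested probesets were called higher and 2.41% lower. With the block 152 probesets were higher and 4 lower, after quantile normalization 477 and 336, and without the block 497 and 335.

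**Figure D1:**
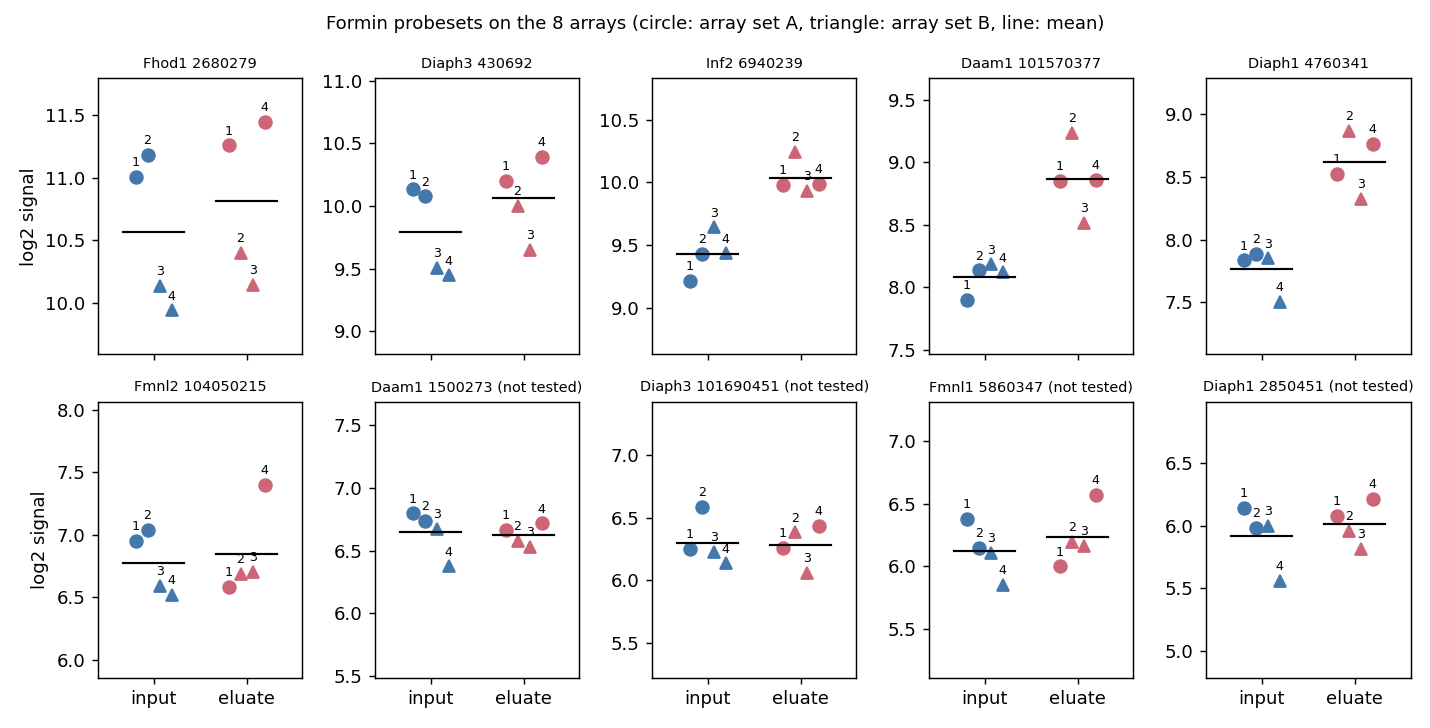
Log2 signal (y axis, a span of equal length in every panel) of each of the 10 formin probesets on the 4 input (blue) and 4 eluate (red) arrays. Numbers are replicates, circles and triangles the array sets A and B, and lines the means. For Inf2, Daam1 101570377 and Diaph1 4760341 the red points lie above the blue ones, while for Fhod1 and Diaph3 430692 the circles lie above the triangles.

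Diaph1 (mDia1), a Diaphanous formin that also acts on microtubules, was measured by probeset 4760341 with signals of 228, 236, 230.5 and 182 in inputs 1 to 4. In eluates 1 to 4 the signals were 368, 467, 321 and 435. The lowest eluate stood above the highest input, and input 4 was dim beside the other inputs. On the log2 scale the inputs averaged 7.77 ± 0.18 (SD, n = 4) and the eluates 8.62 ± 0.24 (SD, n = 4). The log2 fold change was 0.85 (standard error 0.18, adjusted p = 0.111 in limma), with a 95% interval of 1.36-fold to 2.40-fold. It ranked 138 among the 13902 fold changes, from the highest. Without replicate 1 or 3 the adjusted p in limma was 0.521 or 0.369, at log2 fold changes of 0.91 and 0.98. Over 12 alternatives it ran from 3.70e-06 to 0.521, and the lowest came with the array sets as the block, chosen after seeing the data. The second Diaph1 probeset, 2850451, had signals of 47.2 to 70.7 in the inputs and 56.3 to 74.3 in the eluates, below the median on every array, and a log2 difference of 0.10, which was not tested in the filtered fit.

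Daam1, a Dishevelled-associated formin that acts in planar cell polarity signalling, was measured by probeset 101570377 at 239, 281, 291 and 278 in inputs 1 to 4. Eluates 1 to 4 were at 461, 603, 365 and 464. All eluates exceeded all inputs, and the 4 inputs lay close together while eluate 2 was the highest and eluate 3 the lowest of its fraction. Inputs averaged 8.09 ± 0.13 (SD, n = 4) on the log2 scale, and eluates averaged 8.86 ± 0.30 (SD, n = 4). The log2 fold change was 0.78 with a standard error of 0.18, and the adjusted p in limma, 0.151, lay just over the cutoff. The 95% interval was 1.30-fold to 2.27-fold. Without the block the adjusted p was 0.0446, and over 12 alternatives it ran from 2.51e-05 to 1.00, all with a positive fold change. The lowest again came with the array sets as the block. The other Daam1 probeset, 1500273, was dim, at 82.9 to 111 in the inputs and 92.4 to 105 in the eluates, with a log2 difference of -0.02. It reached 100 on 2 eluates and so fell just short of the filter, and Fmnl2, which reached it on 3, just passed. The 2 probesets of Daam1 thus differ in fold change, and the sources used here do not say which part of the transcript each covers.

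Inf2 encodes the inverted formin of the podocyte disease. Its probeset 6940239 had signals of 595, 691, 798 and 691 in inputs 1 to 4. The signals of eluates 1 to 4 were 1011, 1213, 978 and 1016. The fractions did not overlap, input 3 being the brightest input and eluate 2 the brightest eluate. Inputs averaged 9.43 ± 0.17 (SD, n = 4) and eluates 10.04 ± 0.14 (SD, n = 4) in log2 signal. The log2 fold change was 0.61 (standard error 0.17, adjusted p = 0.265 in limma), with an interval of 1.17-fold to 1.98-fold, so it did not pass the cutoff, and its unadjusted p was 0.00518. Its rank was 326 of 13902. It passed without the block (adjusted p = 0.0549), after quantile normalization (adjusted p = 0.143) and without replicate 4 (adjusted p = 0.112), and over 12 alternatives the adjusted p in limma ran from 0.000272 to 1.00. The lowest came with the array sets as the block. Such separation of all eluates above all inputs was seen for 4.83% of the tested probesets, and for 5.01% all eluates lay below all inputs. The first pattern was that of 3 of the 6 tested formin probesets, and none had the second. With 1 probeset per gene, 5.29% of the genes had the first pattern, and 3.8% of the genes were called higher without the block.

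**Figure D2:**
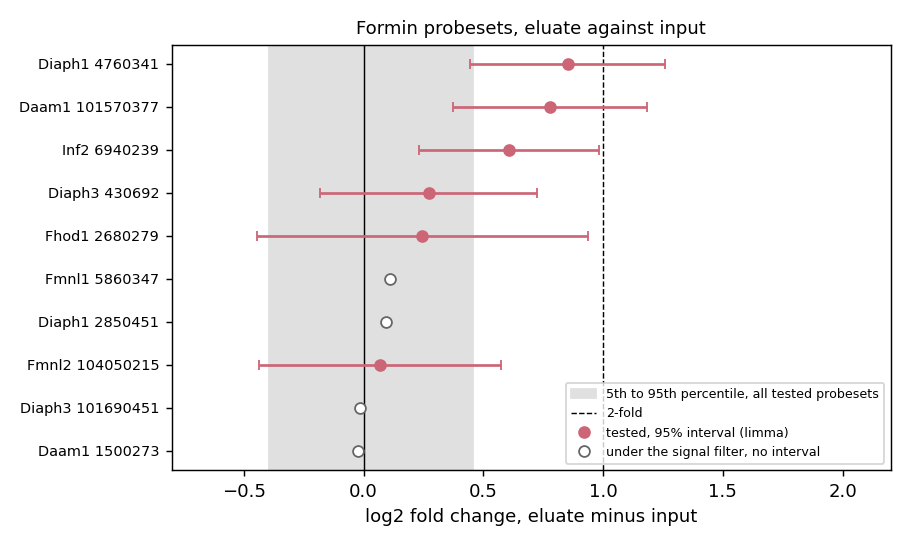
Log2 fold change, eluate minus input (x axis), of the 10 formin probesets (y axis). Filled points carry the 95% interval from limma for the 6 tested probesets, open points are the 4 under the filter, grey marks the 5th to 95th percentile of all tested probesets and the dashed line 2-fold. Diaph1, Daam1 and Inf2 lie to the right of the grey band and to the left of the dashed line.

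Diaph3 (mDia2), the Diaphanous formin of filopodia and of cell division, had signals of 1123, 1080.1, 726 and 698 in inputs 1 to 4 at probeset 430692. In eluates 1 to 4 it was at 1177, 1027, 802 and 1344. The fractions overlapped, and the inputs and eluates of set B were the lower ones of their fraction. The log2 fold change was 0.27 (standard error 0.20, adjusted p = 0.758 in limma), with an interval of 0.883-fold to 1.65-fold. Its second probeset, 101690451, lay between 66.6 and 96.3 on all arrays, with a log2 difference of -0.02.

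Fhod1, which bundles actin in stress fibres, had probeset 2680279 at 2054, 2326, 1126 and 982 in inputs 1 to 4 and 2447, 1351, 1129 and 2788 in eluates 1 to 4. Signals of the 4 arrays of set A ran from 2054 to 2788 and those of set B from 982 to 1351, in both fractions alike, which is 2.10-fold between the sets. The log2 fold change between fractions was 0.24 (standard error 0.31, adjusted p = 0.905 in limma), with an interval of 0.734-fold to 1.91-fold, and without replicate 4 it was -0.18.

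The Fmnl formins are known from leukocytes and from lamellipodia and filopodia. Fmnl2 (104050215) was close to the filter, at 124, 132, 96.5 and 91.8 in inputs 1 to 4 and 96.1, 103, 104 and 169 in eluates 1 to 4. A single eluate, number 4, lay above the inputs. The log2 fold change was 0.07 (standard error 0.22, adjusted p = 0.983 in limma), with an interval of 0.739-fold to 1.49-fold, and -0.20 without replicate 4. Fmnl1 (5860347) had signals of 57.8 to 83.4 in the inputs and 64.0 to 95.1 in the eluates and was not tested. With signals this near the filter, no change of Fmnl1 or Fmnl2 could be read from these arrays.

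Within each array set the same 3 formins had the highest differences between fractions, in an order that differed: Daam1 led in set A and Diaph1 in set B. Diaph1 was higher in the eluates by 0.78 on the log2 scale within set A and by 0.92 within set B. Daam1 was higher by 0.84 and 0.72, and Inf2 by 0.66 and 0.55. Each of these values compares 2 eluates with 2 inputs and has no test. For these 3 formins all eluates lay above all inputs, so a positive sign within both sets was fixed by that separation. For Diaph3 the differences were 0.19 and 0.35, for Fhod1 0.26 and 0.23, and for Fmnl2 -0.00242 and 0.14. Between the sets, the inputs of Fhod1 were 1.06 higher in set A and its eluates 1.08, and those of Diaph3 were 0.63 and 0.47 higher, whereas Inf2 was lower in set A by 0.21 in the inputs and by 0.10 in the eluates. With the array sets as the block, which was chosen after seeing the data, the standard errors of Fhod1 and Diaph3 fell to 0.12 each. Their adjusted p-values in limma were then 0.143 and 0.103, against 3.70e-06 for Diaph1, 2.51e-05 for Daam1, 0.000272 for Inf2 and 0.782 for Fmnl2. In that fit 5 of the 6 formins passed, beside 14.4% of all tested probesets that were higher and 15.2% that were lower. The array sets were themselves defined from these signals, so the p-values of that fit can be too small.

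**Figure D3:**
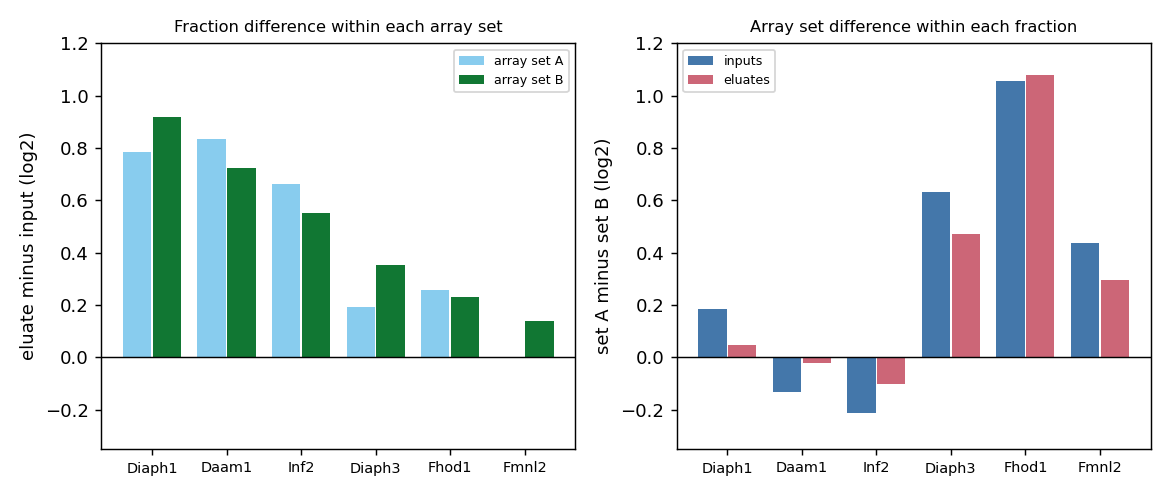
For the 6 tested formins (x axis), the left panel shows the mean difference of eluates and inputs (log2) within array set A and within set B, and the right panel the mean difference of set A and set B (log2) within the inputs and within the eluates. Each bar is a difference of means of 2 arrays. Diaph1, Daam1 and Inf2 differ between fractions in both sets, a sign fixed by their separated fractions, and Fhod1 differs most between sets.

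The 3 formins with separated fractions had similar patterns over the 8 arrays, which follows in part from their choice by that separation. Pearson's r of log2 signals was 0.965 between Daam1 and Inf2, 0.936 between Diaph1 and Daam1 and 0.904 between Diaph1 and Inf2, while Diaph3 and Fhod1 had 0.942 with each other. These coefficients describe 8 arrays that share the fraction and the array sets, and they carry no test. Inf2 had 0.028 with Fhod1. Among named tested probesets of other genes, the pattern most like that of Inf2 was that of Rasa3, a GTPase-activating protein of Ras (r = 0.985), then the kinase Prkcd (0.980) and the Elongator subunit Elp2 (0.979). For Diaph1 they were Card10, Babam2 and the augmin subunit Haus5, with r from 0.986 to 0.987. For Daam1 they were Rrm1, the large subunit of ribonucleotide reductase, Pias4 and Prep, with r from 0.971 to 0.977. Being chosen for a pattern in which the fractions are separate, these 9 genes share it by construction. Their log2 fold changes were 0.34 to 0.69.

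The fold changes of the formins were set beside those of other large proteins that bind actin. Among 48 tested genes of a list of 68 large actin-binding proteins, 23 passed the cutoff as higher and none as lower, 22 of them at least 2-fold, and the median log2 fold change was 0.86. Over the 6 formins, with 1 probeset per gene, the median was 0.44 with 1 called, and over all 8674 genes tested it was 0.000998, with 1.08% called higher. The list was written after the paper's own list of enriched genes had been read. That list was selected for enrichment on these same arrays, and it holds 24 of the 48 genes, so the count and the median of the large proteins are not independent of these data. At the top of the list stood Dbn1 (drebrin) with a log2 fold change of 3.65, Svil (supervillin) with 3.63, Ppp1r9a (neurabin I) with 3.48 and Utrn (utrophin) with 3.37, each with an adjusted p of at most 0.000218 in limma. At the bottom were Macf1, a spectraplakin, with -0.11, the nuclear envelope protein Syne1 with -0.07, Mical3 with -0.05 and Dmd (dystrophin) with -0.03, none of which passed. The 1 Mical3 probeset named here was near the filter, where its inputs averaged a signal of 118 and its eluates 114. Syne1 was as dim, at 116 and 111, Macf1 was at 167 and 154, and the standard error of Dmd was 0.53. These low signals and this wide error limit what the 4 values can show. The paper lists Mical3 as more than 2-fold enriched, and the probeset that stood for it there was not examined. The value of -0.05 is therefore not a reading of Mical3 as unenriched.

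Diaph1 lay at the middle of the large proteins, with 24 of the 48 above it and 24 below. Daam1 had 27 above it and Inf2 29, whereas Diaph3 and Fhod1 had 37 each and Fmnl2 43. These positions depend on the genes taken from the paper's list. The 24 large proteins outside that list had a median log2 fold change of 0.29, with 1 called higher. Among those 24, Diaph1 had 1 above it and 23 below, Daam1 4 and 20, and Inf2 6 and 18. Diaph3 and Fhod1 each had 14 above and 10 below, and Fmnl2 20 and 4. The 24 were left after genes selected for enrichment on these arrays had been taken out, and the highest of them was Mical1 with 0.90. No formin was taken out in this way, so high ranks among the 24 follow in part from that choice. These ranks are a description of fold changes on different probesets, and the difference between a formin and the list was not tested.

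**Figure D4:**
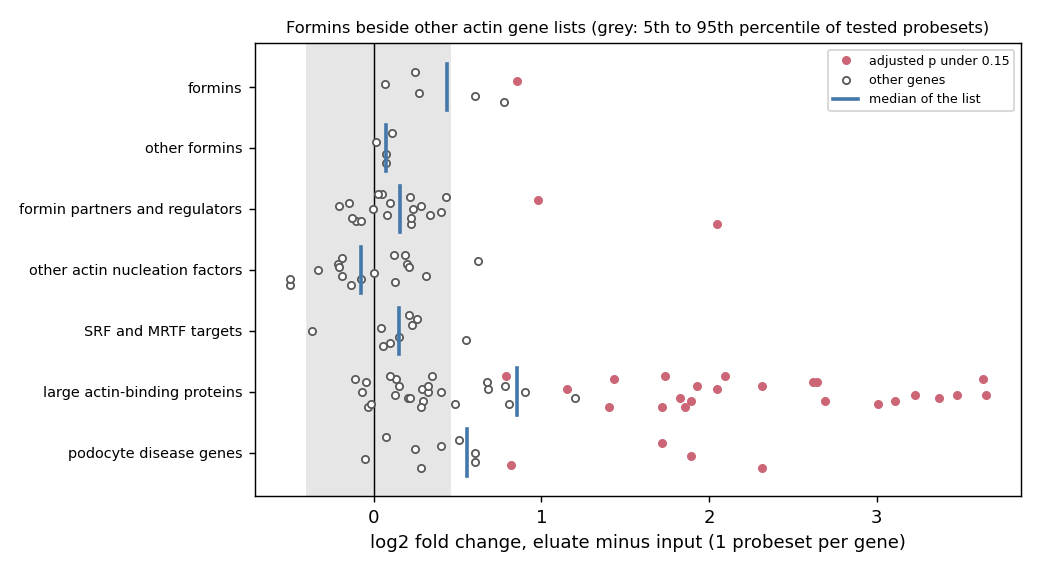
Log2 fold change, eluate minus input (x axis), of every tested gene of 7 lists (y axis), with 1 probeset per gene. Red points passed an adjusted p of 0.15 in limma, bars are medians and grey is the 5th to 95th percentile of tested probesets. The 6 formins lie between 0.07 and 0.85, and the large actin-binding proteins reach 3.65.

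None of the tested formins outside the 9 genes passed the cutoff. Of Daam2, Fhod3, Fmn1, Fmn2 and Grid2ip, 4 were tested, and their log2 fold changes were 0.07 for Daam2, 0.02 for the muscle formin Fhod3, 0.07 for Fmn1 and 0.11 for Grid2ip (delphilin), and limma's adjusted p-values ran from 0.928 to 0.999. A second tested probeset of Fhod3, 102710603, was at -0.13 (adjusted p = 0.933 in limma). Daam2 was near the filter, with signals of 92.6 to 134 on all arrays, which limits what its value can show. Grid2ip had signals of 235 to 266 in the inputs and 267 to 281 in the eluates, so its fractions were separate but close. Fmn2 had signals of 57.3 to 91.0 on all arrays at both probesets and was not tested. None of the 4 had an unadjusted p under 0.05.

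Of 20 tested partners and regulators of formins, 2 passed as higher and none as lower, against 1.08% of all genes tested that were higher, and the median was 0.16. They were Iqgap1, a scaffold that binds DIAPH1, at 4.14-fold (log2 2.05, standard error 0.17, adjusted p = 0.000267), and Flii (flightless I), a relative of gelsolin that binds Daam1 and Diaph1 in mouse, with 0.98 (standard error 0.20, adjusted p = 0.0957). Iqgap1 is itself in the paper's list of enriched genes, and so its call is not independent of that selection. Vasp, Fscn1 (fascin) and Mapre1 (EB1) had log2 fold changes of -0.08, 0.40 and -0.14 and did not pass in limma.

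Other nucleation factors, which include the branching Arp2/3 complex and its activators, had a median log2 fold change of -0.07 over 17 tested genes with none called in limma and 1 at an unadjusted p under 0.05. Arpc1b, Brk1 and Arpc2 were at 0.31, -0.33 and 0.12, none of them past the cutoff. All eluates lay above all inputs for 1 of the 17 genes, Arpc1b, and below them for 2, Brk1 among them. Over all tested probesets, 1403 had an unadjusted p under 0.05 in limma, among them those of Diaph1, Daam1 and Inf2. Of 9 tested genes of the SRF and MRTF group, which responds to the actin pool that formins draw on, none passed in limma, and the median was 0.15. In limma 1 of them, Mrtfa with a log2 fold change of 0.55, had an unadjusted p under 0.05. Acta2 was at 0.05, Tpm1 at -0.37 and Ccn2 at 0.15, with adjusted p-values of 0.801 to 0.999 in limma. Their standard errors were 0.54, 0.31 and 0.33, and errors this wide limit what the values can show.

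Beside the other actin-linked genes of human podocyte disease, Inf2 had the fifth highest fold change. Of 12 tested genes, Inf2 among them, 4 passed as higher and none as lower, against the same 1.08%, and the median was 0.56. Actn4 (α-actinin-4) had a log2 fold change of 2.32 (adjusted p = 0.000505), Myo1e (myosin 1e) one of 1.89 (adjusted p = 0.000505), Myh9 (non-muscle myosin IIa) one of 1.72 (adjusted p = 0.00157) and Kank2, an adaptor at focal adhesions, one of 0.82 (adjusted p = 0.140). The first 3 belong to the paper's list, which was selected on these arrays. At the lower end were Arhgap24 with -0.05, Daam2 with 0.07, Dlc1 with 0.25 and Tns2 with 0.28, none of which passed in limma. The standard error of Arhgap24 was 0.57 and Daam2 was near the filter, which limits what these 2 values can show. Gapdh, a transcript of a soluble glycolytic enzyme, had log2 fold changes of 0.03 to 0.21 at its 5 probesets.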

How the data were processed

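RNA of 4 inputs and 4 eluates was hybridised to Illumina Sentrix-6 mouse arrays. The deposited table that was used holds log2 signals made by the authors for 46643 probesets. BeadStudio and Partek 6.4 are named in the submitters' processing notes, and any normalization between arrays is not stated in the sources read here. A further 24 columns, whose names match none of the labels, were left out. Their headers name 2 beadchips, with 6 and 2 arrays.

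Probesets were named by the platform annotation through Entrez IDs: 32794 have 1 gene symbol, 55 have several and were not named, and 13794 have none. Probesets that reached a signal of 100 on 3 or more of the 4 eluates were tested on the log2 scale with limma 3.58.1 (lmFit, eBayes) in R 4.3.3, on the fraction and the replicate number, with Benjamini-Hochberg adjustment over all 13902 and a cutoff of 0.15. The cutoff and the pairing of pulldowns with inputs follow the study's methods. The signal minimum stands in for the study's filter on detection values, whose columns could not be matched to samples, and limma for its mixed-model analysis of variance. The fit was also run on simulated data that had a replicate block and no array sets. That run therefore does not show how the fit performs on these arrays. Other steps used Python 3.11.15 with pandas 2.3.3, numpy 2.4.6 and matplotlib 3.10.9.

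The members, lists and tests were chosen with earlier results of these data known. In the lists, a gene counts once, by its tested probeset of highest mean signal. Named genes are all formin probesets, genes of the lists past the cutoff (up to 6) with the 3 others of highest mean signal, all genes of lists of up to 5, the 4 highest and 4 lowest of the large proteins and disease genes, the 3 genes most like Inf2, Diaph1 and Daam1, and Gapdh. A list by protein length was not run, and 1 list of regulators is not reported here. The fit was repeated without the block, after quantile normalization, with other filters, with a background of 30 subtracted, without moderation, at a cutoff of 0.05, without each replicate number and, added after seeing the data, with the array sets as the block. Precision rests on the number of arrays.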

Additional observations from a re-analysis of the deposited data

Results flagged for a closer look

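Among the 20 groups of 4 arrays of the formin probesets, 2 held an array that lay far from the rest of its fraction, and chance sets about 1 in 20 such groups apart. Input 4 of Diaph1 (4760341) was at a log2 signal of 7.50, or a signal of 182, where the nearest other input was at 228, and its gap was 0.864 of the range of the inputs. Eluate 4 of Fmnl2 (104050215) was at 7.40, or a signal of 169, where the nearest other eluate was at 104, and its gap was 0.854 of the range. Over all probesets, input 4 had the lowest median signal of the inputs (64.9, the others 76.4 to 84.3). Eluate 4 had the highest median of the eluates (84.6, the others 71.0 to 74.5). Whether the 2 gaps go beyond these shifts of whole arrays was not tested. Without replicate 4, which leaves out both arrays of that number, the log2 fold change of Diaph1 was 0.72 (adjusted p = 0.101 in limma) and that of Fmnl2 was -0.20.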

How the results depend on the processing

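The median log2 fold change of the tested formins stayed within 0.33 to 0.61 and positive under every alternative run. The number of formins past the cutoff as higher, 1 with the replicate block, was 3 with no replicate block, 3 after quantile normalization, 2 with a filter on either fraction, 2 with no filter, 2 with a filter at 200, 0 with no moderation, 0 at an adjusted p of 0.05, 5 with the array sets as the block and 0 to 3 when each replicate number was left out (0 without 1 or 3, 1 without 2 and 3 without 4). None was lower in any of them, as with the block, where 3 formins had an unadjusted p under 0.05 in limma. All tested probesets called, 156 with the block, were 832 with no replicate block, 813 after quantile normalization, 390 with no filter, 0 with no moderation (1303 at an unadjusted p under 0.05), 84 at an adjusted p of 0.05, 4124 with the array sets and 53 to 1474 without single replicate numbers. When single replicate numbers were left out, Fhod1 ran from -0.18 to 0.59 and Fmnl2 from -0.20 to 0.21, both negative without replicate 4, when the median of all tested probesets was -0.13. The cause was not tested. The correlations of deviations between same-numbered arrays were 0.474, -0.663, 0.737 and -0.765 for numbers 1 to 4, and 0 of 8 arrays correlated best with their own number. The positive values belong to numbers whose arrays lie in the same array set and the negative ones to numbers split between the sets, so this check does not tell whether the numbers pair the arrays, and the methods describe each input as processed beside its pulldown. The list of genes by protein length was not run, since no protein table was used here. Signals near the filter limit Fmnl1, Fmnl2 and the dim probesets of Diaph1, Diaph3 and Daam1.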
